A study of Mus musculus with 12 samples.

Results

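The comparison set Setd2 knockout (Hypb-/-) against wild type (Hypb+/+) mouse yolk sacs at embryonic day 9.0 (E9.0), the earlier of the 2 stages profiled. The design text describes E9.0 as a stage without severe visible defects in the mutant, and E10.5 as shortly before death. Its members are the 6 of 12 arrays whose titles carry E9.0, 3 of each genotype. All 6 came from embryos labelled 129Sv/C57BL/6, and each array is described as total RNA from 4 yolk sacs pooled by genotype. The extraction protocol speaks of individual yolk sacs, so pooling is taken here from the sample descriptions and the design text. The 6 E10.5 arrays (3 knockout, 3 wild type, same strain, same pooling) are used here to estimate the spread and for a comparison of the stages. The knockout allele is not described further in the labels, so which part of Setd2 it removes is not given in the sources used here.

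Setd2 is the methyltransferase that trimethylates histone H3 at lysine 36 (H3K36) behind elongating RNA polymerase II, so the mark covers the bodies of transcribed genes. The mark is read by DNA methyltransferases, splicing factors and DNA repair proteins, and it restrains transcription from starting inside genes. The yolk sac is made of visceral endoderm, an absorptive epithelium that secretes plasma proteins and exports lipid, and of mesoderm that forms the first blood cells and vessels.

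Expression is given as log2 RMA levels of 18193 genes, 1 probe set each, so a difference of 1 is 2-fold. A gene is called when its adjusted p is under 0.05 in limma with Benjamini-Hochberg adjustment over all genes. The median standard error (SE) of a change was 0.126, and Spearman correlations between pairs of E9.0 arrays were 0.987 to 0.9944. No depth exists for these values, and the number of arrays limits the precision. Replicate 3 of both genotypes stood apart in the control probe sets: BioC exceeded BioB by 0.15 and 0.24 there, against 1.70 to 1.86 on the other 4 arrays. Probes for the 5' end of 18S rRNA also read 8.27 and 8.21 on these arrays, against 6.74 to 7.44. No such batch is named in the labels. It held both genotypes, so values within replicates 1 and 2 are given beside the count of calls and most medians of the gene groups described.

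Few genes were called at this stage, and their changes were moderate. Of 18193 genes 215 were called, which is 1.18% of those tested. Higher in the knockout were 100 (0.550%), and 115 were lower (0.632%). Unadjusted limma p was under 0.05 for 2149 genes (11.8%), so few calls do not show that few genes differed. The median absolute log2 change was 0.74 among called genes and 0.107 among all genes. A change of at least 2-fold was called for 45 genes (0.247%), 16 higher and 29 lower, while another 25 genes changed by that much on average without passing the test. With replicate 3 as a block the count was 476, including all 215, and within replicates 1 and 2 it was 69, of which 41 were among the 215. A fit on the 6 E9.0 arrays alone, without the E10.5 arrays in the estimate of the spread, called 61 genes, of which 50 were among the 215. Called genes lay at usual levels, with medians of 7.03 for higher and 7.02 for lower genes against 6.52 for all genes.

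**Figure D1:**
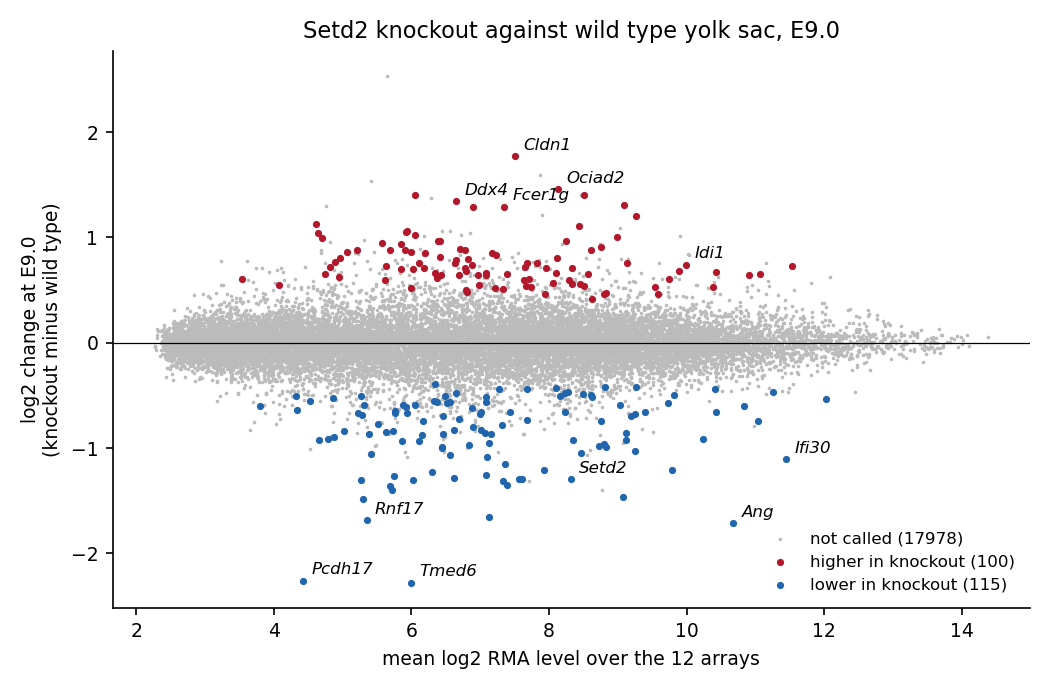
Log2 change at E9.0 (knockout minus wild type, vertical axis) against the mean log2 RMA level over 12 arrays (horizontal axis) for 18193 genes, 1 point each. The 100 genes called higher (red) and 115 called lower (blue) lie across the range of levels, and most changes are under 2-fold.

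The number of calls varied with the array left out. Each of these fits also has fewer arrays in a group, so a lost call need not come from the values of that array. Acly, for 1, lost its call in all 6 fits at changes of 0.59 to 0.72. Dropping knockout replicate 1 left 33, dropping replicate 2 left 182 and dropping replicate 3 left 49. The same for wild type replicates 1, 2 and 3 gave 54, 44 and 136. Of the 215 genes, 182, 79 and 168 lost their call when knockout replicates 1, 2 and 3 were dropped, and 166, 171 and 109 did so for the wild type replicates. A set of 27 genes, 11 higher and 16 lower, was called in all 6 of these fits, and 22 of them also within replicates 1 and 2. For other called genes a phrase such as kept in 2 of 6 counts these fits. In 45 of the 215 genes none did.

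Setd2 itself was at 7.54, 7.99 and 7.53 on the knockout arrays and at 9.08, 9.03 and 8.83 on the wild type arrays. Every knockout array lay below every wild type array, and the log2 change was -1.29 (SE 0.13, limma adjusted p = 0.00207). Its position relative to the deleted part is unknown, so the probe set shows that the labels and the signal go together but not how much intact transcript was left. Setd2 was the 1 called gene of 24 measured enzymes and readers of H3K36 methylation. The enzymes that place lower methylation states there had changes of 0.12 (Nsd1), 0.16 (Nsd2) and 0.20 (Nsd3), with adjusted p of 0.698, 0.559 and 0.635. None of 14 DNA methylation enzymes and none of 31 splicing and RNA processing genes was called, nor was any of 25 DNA repair genes. Over all genes 1.18% were called, so lists of these sizes can hold 0 calls at that share. At an unadjusted p under 0.05 these lists held 0, 1 and 1 genes, Setd2's own list held 1, and limma was the test throughout. That unadjusted p was passed by 11.8% of all genes.

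Among the genes that were lower whichever array was left out, the largest change was that of Pcdh17, a protocadherin of cell adhesion. It was at 4.07, 4.10 and 2.89 in the knockout and 5.95, 5.83 and 6.06 in the wild type (log2 change -2.26, adjusted p = 0.00248). Replicate 3 of the knockout was the lowest, and a second probe set changed by -2.01. Pcdh17 was 1 of 2 called genes among 23 protocadherins and cadherins, where 0.632% of all genes were called lower. The other, the mesenchymal cadherin Cdh11, was at 8.0, 8.25 and 7.57 against 8.78, 8.98 and 9.04 (log2 change -0.99, adjusted p = 0.0176, call kept in 4 of 6 fits).

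Ang, a secreted ribonuclease known for angiogenic activity, was among the more abundant transcripts that fell. Its levels were 9.47, 8.90 and 9.52 in the knockout and 10.86, 10.93 and 11.24 in the wild type (log2 change -1.71, SE 0.18, adjusted p = 0.00207, 3.28-fold lower). Both further Ang probe sets were lower too, by -1.61 and -1.14. Rnase4, another secreted ribonuclease, has 1 RefSeq promoter window in common with Ang. It read 10.31, 10.82 and 10.71 against 10.97, 11.03 and 11.08, which did not overlap but missed the threshold (log2 change -0.41, adjusted p = 0.162). At E10.5 both genes were called lower, Ang by -1.22 and Rnase4 by -0.86. The window is shown because both genes list it: it spans chr14:51090827-51091126 on the plus strand (RefSeq, GRCm38.p6), 250 bases before to 50 after the annotated start. Capitals mark its 8 CG dinucleotides, against a median of 7 over all 32851 RefSeq windows of this length and 16 over those of measured genes.
Ang and Rnase4: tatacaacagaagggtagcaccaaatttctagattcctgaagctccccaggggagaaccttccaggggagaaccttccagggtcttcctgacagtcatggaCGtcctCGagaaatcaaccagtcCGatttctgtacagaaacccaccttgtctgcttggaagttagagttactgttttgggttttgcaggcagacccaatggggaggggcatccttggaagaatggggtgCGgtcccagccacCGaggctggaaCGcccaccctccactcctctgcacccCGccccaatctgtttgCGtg

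A pair of germ cell genes moved in opposite directions. Ddx4, the RNA helicase known as a germ cell marker (Vasa), read 7.40, 7.10 and 7.35 in the knockout and 6.04, 6.00 and 5.77 in the wild type (log2 change 1.35, SE 0.15, adjusted p = 0.00217). Rnf17, a tudor domain protein of the male germ line, read 5.04, 5.08 and 4.54 against 6.35, 6.63 and 6.74 (log2 change -1.69, adjusted p = 0.00248). As in every called gene, the arrays did not overlap for either, and Rnf17's 3 further probe sets changed by -1.08, -0.64 and -0.51. No other of 38 measured germ cell genes was called. Their median change was 0.01 (also 0.01 within replicates 1 and 2), but 0.30 among those above the median level of all genes. At an unadjusted p under 0.05, 7 were higher and 1 lower, where 5.49% and 6.33% of all genes were. The annotated Ddx4 start, chr13:112652261-112652560 on the minus strand, is rich in CG, with 38 dinucleotides in its 300-base window (capitals), and is shown beside that of Ang for contrast.
Ddx4: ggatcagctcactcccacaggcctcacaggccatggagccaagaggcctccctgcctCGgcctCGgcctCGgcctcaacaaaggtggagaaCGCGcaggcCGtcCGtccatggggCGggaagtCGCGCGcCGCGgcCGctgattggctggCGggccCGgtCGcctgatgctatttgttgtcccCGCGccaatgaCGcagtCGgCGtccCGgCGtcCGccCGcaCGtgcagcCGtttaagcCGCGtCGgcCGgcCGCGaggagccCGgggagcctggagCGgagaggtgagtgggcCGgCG
Over the 105 windows of 80 genes called higher, the median was 18 CG dinucleotides (quartiles 7 and 31). Over the 133 windows of 94 genes called lower it was 11 (7 and 21). The quartile ranges overlap, and a gene with several windows counts more than once.

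The other named genes that fell in all 6 fits serve varied roles. Ifi30, the thiol reductase that unfolds antigens in lysosomes, fell from 11.63, 11.68 and 11.79 to 10.59, 10.86 and 10.34 (log2 change -1.10, adjusted p = 0.00207). Mpzl2, an immunoglobulin-type adhesion protein of epithelia, read 7.55, 7.74 and 7.43 against 8.90, 8.94 and 8.50 (-1.21, adjusted p = 0.00266), and both of its further probe sets fell by over 0.8. Tmem54, a membrane protein listed here with tight junction genes, read 3.87, 4.37 and 4.64 against 5.57, 5.75 and 5.77 (-1.40, adjusted p = 0.00252). For each of the 3 genes, as in every gene called lower, all knockout arrays were below all wild type arrays. Smpdl3b, a lipid phosphodiesterase of the cell surface, changed by -1.28, Mxra8, an adhesion protein that also serves as an alphavirus receptor, by -1.29, and Plac8, a small cysteine-rich protein, by -0.92. Cox7a1, a subunit of cytochrome c oxidase, changed by -0.97, and Sla, an adaptor that dampens antigen receptor signalling, by -0.997. The zinc finger genes Zik1 (-1.30) and Zfp672 (-1.23) complete the named set, and the remaining 2 genes carry clone identifiers.

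Of the 11 genes that were higher in all 6 fits, Ociad2, an endosomal and mitochondrial membrane protein, changed most. It read 8.72, 8.28 and 8.35 in the knockout and 6.58, 7.25 and 7.14 in the wild type (log2 change 1.46, SE 0.20, adjusted p = 0.00487), and its second probe set rose by 0.85. Fcer1g, the signalling chain shared by Fc receptors, read 7.39, 7.41 and 7.62 against 6.10, 6.32 and 6.12 (1.29, adjusted p = 0.00217). In both genes the gap between the genotypes exceeded the spread among the arrays of either. Me1, cytosolic malic enzyme, which supplies NADPH for lipid synthesis, read 8.66, 8.73 and 8.81 against 7.67, 7.80 and 7.82 (0.97, adjusted p = 0.00538). Opn3, an opsin, rose by 1.00 and Parp12, an ADP-ribosyltransferase, by 1.05. Lrp8, a receptor for reelin and apolipoprotein E, rose by 0.88, and Mlf1, a protein of myeloid leukaemia translocations, by 0.99. Further Lrp8 probe sets changed by 0.04 and 0.29, neither at an unadjusted p under 0.05, while that of Me1 rose by 0.84. Nipal2, a NIPA-like membrane protein, rose by 0.85.

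Snap91, a clathrin assembly protein of synapses, and Kif5c, a neuronal kinesin heavy chain, were also higher in all 6 fits. Snap91 read 5.22, 4.85 and 5.12 against 4.04, 3.88 and 3.89, and Kif5c read 6.74, 6.37 and 6.25 against 5.40, 5.61 and 5.17. Their changes were 1.13 and 1.06, with adjusted p of 0.00406 and 0.00832, but no other probe set of either gene passed an unadjusted p under 0.05 (Snap91 -0.06 on its second, Kif5c 0.47, 0.08 and 0.10). Rab6b, a Golgi GTPase of neurons, rose by 1.29 with all 4 of its probe sets higher, and its call was lost without knockout replicate 1 (adjusted p = 0.0583). These are the 3 called genes of 29 neuronal traffic genes, a list drawn up with earlier results known, where 0.550% of all genes were called higher. Its median change was -0.01, and -0.075 within replicates 1 and 2.

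**Figure D2:**
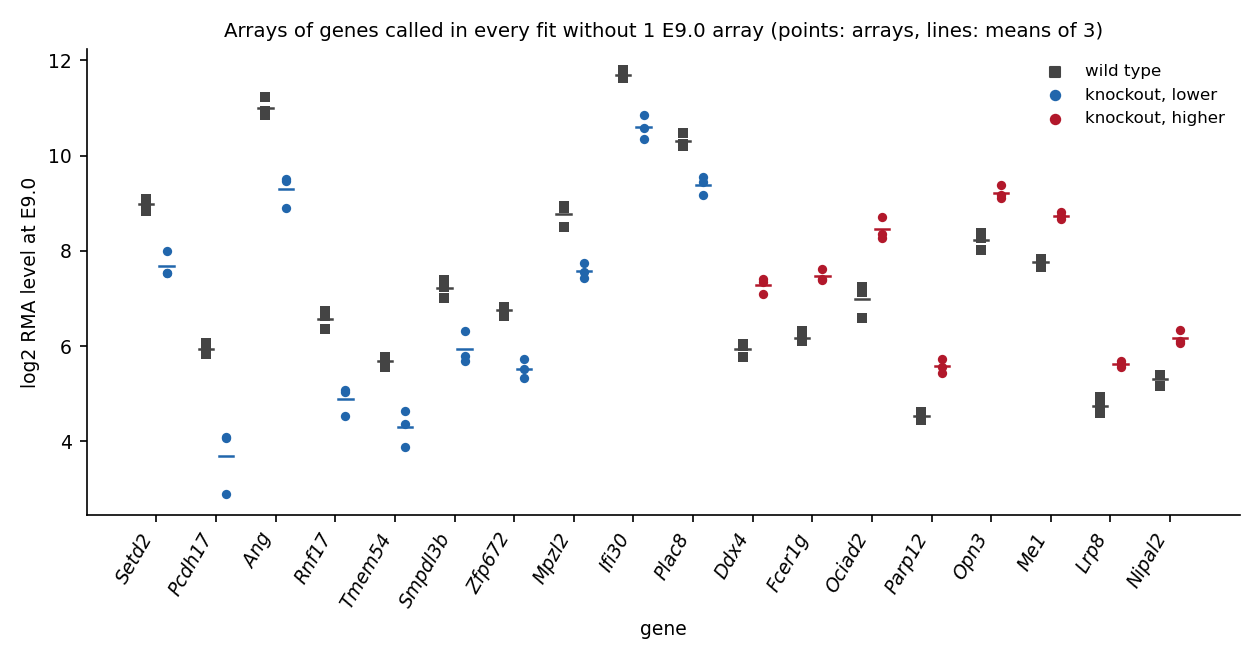
Log2 RMA level at E9.0 (vertical axis) of 18 genes called in every fit that left out 1 E9.0 array, with wild type arrays as grey squares and knockout arrays as circles, blue where lower and red where higher. Lines are means of 3 arrays. In each gene the arrays of the genotypes do not overlap, which holds for all 215 called genes and for 18.0% of all genes (8.56% higher, 9.42% lower).

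Among the remaining 2-fold changes several had large spreads. Tmed6, a member of the p24 cargo receptor family, had the largest fall, from 7.09, 7.07 and 6.26 to 3.29, 6.00 and 4.30 (-2.28, adjusted p = 0.0453). Cldn1, a sealing claudin of tight junctions, had the largest rise, from 4.75, 5.28 and 6.61 to 7.73, 7.20 and 7.02 (1.77, adjusted p = 0.0372). The knockout arrays of Tmed6 and the wild type arrays of Cldn1 spread widely, and each call was kept in 1 of 6 fits, with adjusted p up to 0.170 and 0.181. Ankrd1, a target of YAP signalling, rose by 1.40 (adjusted p = 0.0291) and was called in none of the 6 fits. Tff3, a trefoil peptide of mucosal epithelia, rose by 1.21, and Kng1, kininogen, by 1.31, each kept in 2 of 6 fits. Csf2rb2, a receptor chain for interleukin 3, read 5.64, 5.74 and 5.55 against 6.73, 6.81 and 7.18 (-1.26, adjusted p = 0.0197, kept in 2 of 6). Falls of at least 2-fold were also called for Pnma5 (-1.65) and the polarity protein Sapcd2 (-1.07), each kept in 3 of 6. Urah (-1.47), the chloride transporter Clcn4 (-1.32) and the carboxylesterase Ces2b (-1.03) were kept in 1 of 6 each. Among rises of that size Ctla2b (1.40) and Lonrf3 (1.04) were kept in 2 of 6, and Clrn3 (1.11) and Ccdc122 (1.02) in 1 of 6. A further Lonrf3 probe set changed by 0.43 and did not pass an unadjusted p under 0.05.

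Of 1985 genes with a mean level above 10, 14 were called, which is 0.705% against 1.18% of all genes. Txndc17, a thioredoxin-like reductase, was the brightest, at 11.61, 11.90 and 11.85 in the knockout and 12.36, 12.26 and 12.33 in the wild type (-0.53, adjusted p = 0.0225, kept in 1 of 6 fits). Tuba4a, an alpha tubulin of platelets and neurons, read 10.46, 10.86 and 10.79 against 11.49, 11.48 and 11.37 (-0.74, adjusted p = 0.0197, kept in 2 of 6). Like every called gene, neither overlapped between genotypes, and both were also called lower at E10.5. The mitochondrial proteins Tmem126a (-0.60) and Fam136a (-0.47) and the thymidylate kinase Dtymk (-0.65) were lower and kept in 1 of 6 fits each. Further probe sets changed by -0.52 and -0.02 for Dtymk, the latter at a mean level of 9.93, and by -0.26 and 0.08 for Fam136a. Mtarc1, a mitochondrial amidoxime reductase, was higher (0.64, kept in none of 6).

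Genes of cholesterol synthesis were higher as a group. Of 24 measured genes 4 were called higher, which is 16.7% against 0.550% of all genes, and 0 lower. Their median change was 0.39 against -0.01 over all genes, 22 of 24 were above 0, and 12 were higher at an unadjusted p under 0.05, a level that 5.49% of all genes passed in this direction. The exceptions were Tm7sf2, a sterol reductase, at -0.13 and Npc1l1, the sterol uptake transporter, at -0.38. The median was 0.41 within replicates 1 and 2 and 0.38 between the replicate 3 arrays. With the mean of each gene's probe sets it was 0.28. This list was drawn up with earlier results known, so its count is a description.

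Idi1, which isomerises isopentenyl diphosphate, read 10.28, 10.27 and 10.16 in the knockout and 9.54, 9.68 and 9.26 in the wild type (log2 change 0.74, SE 0.14, adjusted p = 0.0196). Insig1, the endoplasmic reticulum protein that retains the sterol sensor, read 8.53, 8.50 and 8.67 against 7.91, 8.06 and 7.60 (0.71, adjusted p = 0.0197). As in every gene called higher, all knockout arrays lay above all wild type arrays for both. Sqle, squalene epoxidase, read 10.02, 10.01 and 9.98 against 9.19, 9.56 and 9.21 (0.68, adjusted p = 0.0225). Lss, lanosterol synthase, read 8.76, 8.68 and 8.98 against 7.90, 8.26 and 8.29 (0.66, adjusted p = 0.0291). Further probe sets of Lss changed by 0.28 and 0.003, while that of Idi1 changed by 0.85. Without 1 array the changes of the 4 genes stayed between 0.53 and 0.84. All 4 lost their call in each fit without knockout replicate 1, knockout replicate 3 or wild type replicate 1. These fits have fewer arrays, so the lost calls need not come from the values of those arrays. Without knockout replicate 1 the adjusted p were 0.0938, 0.0833, 0.115 and 0.117. Without knockout replicate 3 they were 0.0517, 0.0666, 0.0643 and 0.0981, and without wild type replicate 1 they were 0.0629, 0.0629, 0.0921 and 0.108. Sqle also lost its call without knockout replicate 2 (0.0514) and wild type replicate 3 (0.0623), and Lss without wild type replicate 2 (0.0863).

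Several enzymes of the same route had like values without passing. Hmgcs1, which makes the precursor HMG-CoA, had a change of 0.59 (adjusted p = 0.0805), Fdps, farnesyl diphosphate synthase, 0.58 (0.0584), and Fdft1, squalene synthase, 0.55 (0.0591). Cyp51, the lanosterol demethylase, had 0.69 (0.074), and the later enzymes Msmo1 and Sc5d 0.52 (0.0769) and 0.55 (0.0853). None of these 6 overlapped between the genotypes, as held for 8.56% of all genes in this direction. Mvk, mevalonate kinase (0.18, adjusted p = 0.686), and Dhcr7, the last reductase of the route (0.46, 0.599), did overlap. At E10.5 the median of the 24 genes was -0.28, with 0 called higher and 4 lower. The change of the knockout effect from E9.0 to E10.5 passed for 4 of them, which were Idi1, Insig1, Lss and Msmo1.

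**Figure D3:**
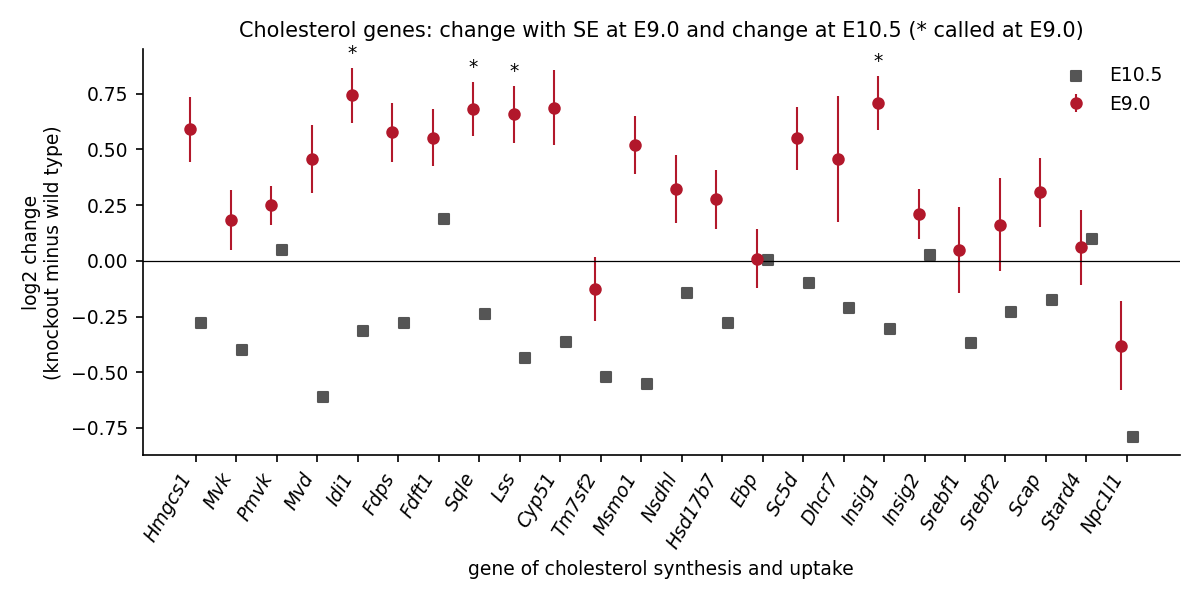
Log2 change (knockout minus wild type, vertical axis) of the 24 measured cholesterol genes at E9.0 (red circles, bars are SE) and at E10.5 (grey squares, no error shown), with asterisks on the 4 called at E9.0. At E9.0 22 of 24 lie above 0, and the E10.5 median is -0.28.

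The RefSeq promoter windows of called sterol genes are shown because these genes were higher together. Capitals mark each CCAAT box, searched as CCAAT or ATTGG and so on both strands, and the sterol element TCACNCCAC (either strand), of which these 3 windows hold none. The windows lie at chr13:8885356-8885655 for Idi1, chr5:28071162-28071461 for Insig1 and chr10:76531355-76531654 for Lss, all on the plus strand of GRCm38.p6.
Idi1: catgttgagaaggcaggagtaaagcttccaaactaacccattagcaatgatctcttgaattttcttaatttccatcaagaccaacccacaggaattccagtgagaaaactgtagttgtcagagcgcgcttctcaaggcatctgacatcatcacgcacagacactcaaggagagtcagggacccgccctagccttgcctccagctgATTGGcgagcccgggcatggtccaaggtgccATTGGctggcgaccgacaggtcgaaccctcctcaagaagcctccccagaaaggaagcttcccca
Insig1: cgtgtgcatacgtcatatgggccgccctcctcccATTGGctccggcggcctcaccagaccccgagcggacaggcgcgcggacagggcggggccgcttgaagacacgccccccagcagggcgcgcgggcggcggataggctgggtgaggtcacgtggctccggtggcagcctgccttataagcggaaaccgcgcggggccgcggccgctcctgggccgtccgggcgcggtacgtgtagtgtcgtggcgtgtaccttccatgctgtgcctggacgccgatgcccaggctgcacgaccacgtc
Lss: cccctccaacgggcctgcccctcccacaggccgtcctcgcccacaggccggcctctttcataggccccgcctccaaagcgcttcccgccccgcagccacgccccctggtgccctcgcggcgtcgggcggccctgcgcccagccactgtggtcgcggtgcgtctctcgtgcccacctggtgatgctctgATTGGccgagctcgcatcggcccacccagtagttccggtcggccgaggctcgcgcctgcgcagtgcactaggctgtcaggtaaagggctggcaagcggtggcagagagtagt
The CCAAT box was in 71.4% of the 28 windows of measured list genes (20 genes had a window) and in 37.4% of all 32851 windows. The sterol element was in 3.57% and 1.24%. Among windows of all genes called higher at E9.0 the CCAAT box was in 31.4%. These are matches of letters and not binding sites.

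Other lists of lipid and detoxifying metabolism held between 0 and 2 calls, where 0.550% of all genes were called higher and 0.632% lower. Of 20 genes of fatty acid synthesis and desaturation, Me1 (above) and Acly, which makes cytosolic acetyl-CoA, were called higher and none lower, with a list median of 0.08 (0.12 within replicates 1 and 2). Acly read 11.17, 11.30 and 11.18 against 10.44, 10.69 and 10.56 (0.65, adjusted p = 0.0301, call kept in none of the 6 fits). Fasn, the fatty acid synthase, had 0.39 (adjusted p = 0.203). None of 18 genes of fatty acid oxidation was called (4 at an unadjusted p under 0.05), nor was any of 17 apolipoprotein and lipoprotein genes (4). Of all genes 11.8% passed that unadjusted p. Of 19 glutathione transferase genes Gsta3 was called, reading 5.13, 5.35 and 5.16 against 4.18, 4.08 and 4.47 (0.97, adjusted p = 0.0189, kept in 2 of 6 fits). A further Gsta3 probe set changed by 0.27 and did not pass an unadjusted p under 0.05.

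A list of apoptosis genes and targets of p53, the factor that answers DNA damage and other stress, leaned upwards. Of 31 measured genes 2 were called higher and 0 lower, 24 lay above 0, and 11 were higher at an unadjusted p under 0.05. Over all genes 0.550% were called higher, 48.2% lay above 0 and 5.49% were higher at that unadjusted p. This list too was drawn up with earlier results known, so its counts are a description. The list median was 0.26, with 0.235 within replicates 1 and 2 and 0.29 between the replicate 3 arrays. With the mean of each gene's probe sets it was 0.18. Ccng1, cyclin G1, read 10.33, 10.27 and 10.61 against 9.74, 9.65 and 9.79 (0.68, adjusted p = 0.00984), and both further probe sets rose by at least 0.70. Its call was lost without wild type replicate 2 (adjusted p = 0.061). Trp53inp1, a nuclear protein induced by p53, read 10, 10.18 and 10.12 against 9.55, 9.62 and 9.55 (0.53, adjusted p = 0.0344), and none of the 6 fits kept its call. Its further probe set changed by 0.23 and did not pass an unadjusted p under 0.05. As in every called gene, neither gene's arrays overlapped. Zmat3 (0.73, adjusted p = 0.0539), Btg2 (0.70, 0.0591) and Mdm2 (0.36, 0.173), the ligase that degrades p53, did not pass. At E10.5 the list median was 0.33, with 11 called higher.

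Zinc finger genes were mostly lower. The symbol family Zfp, largely DNA-binding proteins and many of them KRAB repressors of transposons, had 329 measured genes, of which 13 were called lower (3.95% against 0.632% of all genes) and 1 higher. Their median change was -0.11 with 103 above 0, and at an unadjusted p under 0.05 65 were lower and 10 higher. The median was -0.09 within replicates 1 and 2, -0.13 between the replicate 3 arrays, -0.09 after median centring of each array and -0.07 among genes above the median level. It kept its sign without each array in turn (-0.11 to -0.10). The family's median level was 6.51, against 6.52 for all genes. The family was chosen with earlier results of these data known, so its counts are a description.

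Zfp672, whose call was kept in all 6 fits, read 5.52, 5.72 and 5.34 against 6.63, 6.83 and 6.81 (-1.23, adjusted p = 0.00227). Zfp850 read 5.73, 6.14 and 5.68 against 6.78, 6.77 and 6.80 (-0.93, adjusted p = 0.0197, kept in 2 of 6). As in every gene called lower, all knockout arrays lay below all wild type arrays in both. Zfp54 changed by -0.66 (adjusted p = 0.0212, kept in 2 of 6) and Zfp235 by -0.57 (adjusted p = 0.0225, kept in 1 of 6). The other 9, Zfp473, Zfp760, Zfp59, Zfp629, Zfp938, Zfp932, Zfp946, Zfp983 and Zfp28, changed by -0.80 to -0.39. Of these Zfp760 and Zfp932 were kept in 2 of 6 fits, Zfp983 and Zfp28 in none and the rest in 1. Further probe sets of Zfp54 (-0.10 and -0.04), Zfp235 (0.04), Zfp59 (-0.05), Zfp629 (-0.09) and Zfp983 (-0.17 and -0.14) did not pass an unadjusted p under 0.05, while 1 of 3 for Zfp28 did, at -0.34. Zfp451, the 1 higher, rose by 0.57 (adjusted p = 0.0175, kept in 4 of 6 fits), while its 4 further probe sets changed by -0.22 to 0.37 and none passed an unadjusted p under 0.05. Zscan18, of a related family and named after its values were seen, changed by -0.83 (kept in 3 of 6). At E10.5 the Zfp family's median was -0.03, with 23 called lower and 10 higher.

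**Figure D4:**
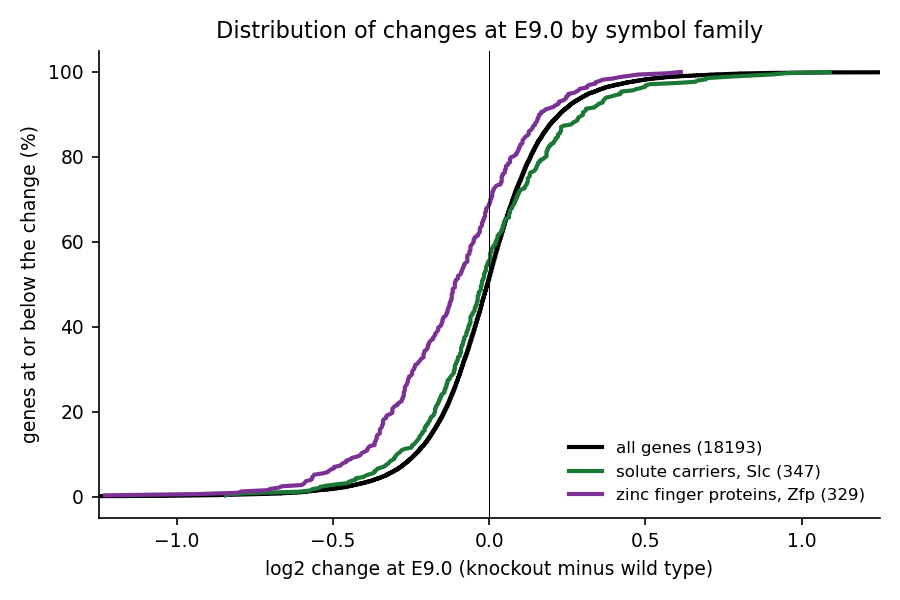
Share of genes at or below each log2 change at E9.0 (knockout minus wild type, horizontal axis) for all 18193 genes (black), 347 Slc solute carriers (green) and 329 Zfp zinc finger genes (purple). The Zfp curve lies to the left, with a median of -0.11, while the Slc median is -0.02.

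Macrophage and blood progenitor genes were split. Of 20 measured, Fcer1g (above) and Cd68, a lysosomal protein of macrophages, were called higher, and Tyrobp, an adaptor of activating receptors, lower, where 0.550% and 0.632% of all genes were. The list median was -0.105, with -0.09 within replicates 1 and 2, but 0.43 among members above the median level of all genes. Cd68 read 6.91, 7.16 and 7.10 against 6.46, 6.54 and 6.23 (0.65, adjusted p = 0.0189, kept in 4 of 6 fits). Tyrobp read 4.31, 4.72 and 4.37 against 5.01, 5.26 and 4.95 (-0.61, adjusted p = 0.0451, kept in 1 of 6). Fcer1g and Tyrobp encode adaptor chains of one kind and moved in opposite directions. Ptprc, the leukocyte marker CD45, had -0.97 (adjusted p = 0.0548) and the Fc receptor Fcgr3 -0.88 (0.0506), while Csf1r, the macrophage growth factor receptor, had 0.43 (0.344). The list's linear RMA values summed to 1994 to 2183 on knockout arrays and 1922 to 2131 on wild type arrays. In bulk tissue fewer cells of a type and less RNA per cell cannot be told apart.

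Platelet lineage genes were lower on average. Of 14 measured, 1 was called, the integrin subunit Itgb3, which read 6.20, 6.35 and 5.95 against 6.89, 7.19 and 6.91 (-0.83, adjusted p = 0.037, kept in 1 of 6 fits). That 1 call is 7.14% of the list, where 0.632% of all genes were called lower. A further Itgb3 probe set changed by -0.22 and did not pass an unadjusted p under 0.05. Pf4, a platelet chemokine, read 6.61, 6.80 and 6.14 against 7.46, 7.43 and 8.86, which did not overlap but did not pass (-1.40, adjusted p = 0.0555). The median of the list was -0.22, but -0.03 within replicates 1 and 2 and -0.455 between the replicate 3 arrays. Its summed level was 1167 to 1257 in the knockout and 1303 to 1836 in the wild type, highest on wild type replicate 3.

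Epithelial and absorptive genes held a few falls, where 0.632% of all genes were called lower and 0.550% higher. Of 26 genes of endocytic uptake and brush border, Tmed6 (above) and Espn, an actin bundler of microvilli, were called lower and 0 higher (list median -0.0017, and -0.035 within replicates 1 and 2). Espn read 6.66, 7.23 and 7.26 against 8.10, 8.25 and 8.26 (-1.15, adjusted p = 0.0318, kept in 1 of 6 fits). Eps8l3, a relative of an actin capping protein of microvilli, changed by -1.08 and was also kept in 1 of 6. The receptors Lrp2 (megalin, 0.38, adjusted p = 0.131) and Folr1 (folate receptor, -0.17, 0.553) were not called. Of 26 claudin and tight junction genes, Tmem54 and Marveld2 (tricellulin, -0.83, adjusted p = 0.0224, kept in 1 of 6) were lower and Cldn1 was higher. Their median was -0.10, but 0.05 within replicates 1 and 2. Among sugar and amino acid transporters the glutamine carrier Slc38a1 was higher (0.91), and the neutral amino acid carrier Slc6a19 (-0.83) and the cationic one Slc7a7 (-0.57) were lower, 3 calls among 30 genes, each kept in 1 or 2 of 6 fits (list median -0.05, and 0.03 within replicates 1 and 2).

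The vessel and matrix lists described here held 1 or 2 calls each, all lower, where 0.632% of all genes were called lower. Ang was the 1 called gene of 26 in the VEGF, angiopoietin and adrenomedullin list, in which Vegfa had 0.20 (adjusted p = 0.556) and the receptor Kdr 0.00 (0.998). Gja4, a connexin of arterial endothelium, was the 1 of 26 Notch and arterial-venous genes, reading 4.85, 5.78 and 5.20 against 6.09, 6.92 and 6.90 (-1.36, adjusted p = 0.0317, kept in 2 of 6 fits). Slit2, a guidance ligand, was the 1 of 31 axon guidance genes, reading 7.0, 7.51 and 6.40 against 8.28, 8.51 and 8.18 (-1.35, adjusted p = 0.0256, kept in 2 of 6), with both further probe sets lower. Of 42 collagens Col14a1 (-1.26) and Col9a1 (-0.98) were called lower, each kept in 1 of 6. Cthrc1 (-1.04) and Lrrc17 (-1.05), secreted proteins of mesenchyme, were among the 2-fold falls, kept in 2 and 1 of 6. No further probe set of Col14a1, Col9a1 or Lrrc17 passed an unadjusted p under 0.05.

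Few cell type markers were called. No gene was called among 17 visceral endoderm, 14 primitive erythroid, 20 endothelial and 20 mesothelial and mesenchymal markers (1, 0, 2 and 4 at an unadjusted p under 0.05 in limma). Of all genes 1.18% were called and 11.8% passed that unadjusted p, so lists of these sizes can hold 0 calls at that share. Their medians were 0.03, 0.08, 0.07 and 0.06. Within replicates 1 and 2 they were 0.015, 0.12, 0.03 and 0.085. The defining markers were near the top of the scale on all 6 arrays, with Afp at 13.71 to 13.94 and the embryonic globin Hbb-bh1 at 14.32 to 14.44. These lie close to the highest value of the whole table, so a difference in such bright probe sets could be compressed, and their small changes do not show equal levels. The alpha-like embryonic globin Hba-x had a change of 0.06 (adjusted p = 0.884), Ttr -0.03 and Pecam1 0.37 (adjusted p = 0.622). Summed levels of the visceral endoderm list were 95303 to 105669 in the knockout and 100598 to 102094 in the wild type. Those of the erythroid list were 61598 to 66534 and 58085 to 63956.

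Markers of tissue that dissection can carry over varied between arrays of 1 genotype. The sum of 19 parietal endoderm and basement membrane genes was 70233 on knockout replicate 3, against 36076 and 38138 on the other knockout arrays and 33968 to 44521 on wild type arrays. Its median change was 0.27 over all arrays, -0.225 within replicates 1 and 2 and 1.37 between the replicate 3 arrays, with 0 called. Lama1, a laminin chain of that membrane, read 11.86 on knockout replicate 3 and 8.70 to 10.43 on the other 5. Prl8a2, a decidual prolactin, varied from 7.64 to 10.60, and the heart genes Myl7 and Tnnt2 were highest on wild type replicate 3 at 8.05 and 6.54. None of 10 trophoblast, 14 decidual and 25 embryo markers was called (2, 1 and 2 at an unadjusted p under 0.05), where 1.18% and 11.8% of all genes were. The part of such carried-over tissue in other results was not tested.

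All 49 lists were chosen with earlier results of these data known, so their share of calls is a description. Across them 39 of 1095 measured genes were called (3.56%, against 1.18% of all genes). Of these calls 20 were higher and 19 lower, and 25 lists had no called member. Those without calls include fatty acid oxidation, hypoxia and glycolysis (30 genes, median 0.085), oxidative phosphorylation (34, 0.01), the cell cycle (38, 0.05) and imprinted genes (32, 0.06). Within replicates 1 and 2 the last 4 medians were 0.06, 0.01, 0.07 and 0.15. For imprinted genes it was -0.075 between the replicate 3 arrays. Ifi35 (-0.49, adjusted p = 0.0488, kept in none of 6) was the 1 called of 29 interferon response genes, whose median was -0.02 at E9.0 (0.055 within replicates 1 and 2) and 1.11 at E10.5. Ifit3, an antiviral effector, had 0.14 at E9.0 and 2.45 at E10.5, and Usp18, which restrains interferon signalling, 0.11 and 2.37. For 11 of the 29 genes the difference between the stages passed. Single calls in other lists were Gusb (lysosomal glucuronidase, -0.73), Abcg5 (sterol exporter subunit, -0.69), Adh1 (retinol-oxidising alcohol dehydrogenase, -1.29) and Atf3 (stress transcription factor, 0.53), each kept in 1 or 2 of 6 fits.

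No gene next to Setd2 was called with it. Among the 10 measured genes on each side in RefSeq order the changes ran from -0.62 (Nbeal2) to 0.31 (Scap), and 0 of 20 passed. At 50 genes on each side 2 of 100 were called, Nme6 (-0.67, kept in 2 of 6), a nucleoside diphosphate kinase, and Epm2aip1 (-0.74, kept in none of 6), and at 100 on each side 4 of 200. That is 2.0% against 1.18% of all genes.

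Other probe sets of the same genes mostly moved the same way. Of 110 called genes with another probe set, 74 had at least 1 that passed an unadjusted p under 0.05 in the same direction, and 103 had 1 of the same sign. Auh, an RNA-binding enzyme of leucine breakdown, rose by 0.56 on its brightest probe set (kept in 1 of 6) while 2 others passed in the opposite direction, by -0.51 and -0.40. Crebzf, a bZIP factor, rose by 0.60 (kept in none of 6) with others at -0.66 and 0.65. The other 105 called genes had a single probe set.

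The E9.0 changes were set beside those at E10.5, which come from other pools. Of the 215 genes 197 (91.6%) had the same sign at E10.5, against 61.5% of genes not called at E9.0. Called the same way at both stages were 119 (55.3%), 45 higher and 74 lower, while 7.28% of all genes were called at E10.5 (4.12% higher, 3.16% lower). Both tests share 1 estimate of each gene's spread, and a gene with a small estimate passes more easily at both stages. The share of all genes is therefore not a like background. Among the 45 genes with 2-fold changes 36 were called the same way. Of the 27 genes called in all 6 fits 25 were, and the exceptions were Lrp8 (0.30 at E10.5, adjusted p = 0.123) and Sla (0.03, adjusted p = 0.945). Over the 215 genes the changes at both stages had Pearson's r = 0.84, across genes that are not independent replicates.

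Sizes were in part smaller at the later stage. The median change of the 100 higher genes was 0.72 at E9.0 and 0.435 at E10.5, and that of the 115 lower genes -0.77 and -0.61. Selection at E9.0 favours large E9.0 values, so these medians are a description. Among the 100 higher genes 26 had a larger change at E10.5, as did 37 among the 115 lower ones. Among those that were larger, Tmem54 changed by -1.40 and then -2.05, Zik1 by -1.30 and then -1.93, Cox7a1 by -0.97 and then -1.46, and Ankrd1 by 1.40 and then 3.22. Among those that were smaller, Pcdh17 changed by -2.26 and then -1.75, Ociad2 by 1.46 and then 0.75, and Setd2 by -1.29 and then -0.83. For none of these 7 did the difference between stages pass.

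The reverse reading takes genes called at E10.5 and gives their values on the E9.0 arrays. Of 750 genes higher at E10.5, 625 (83.3%) were above 0 at E9.0, where 48.2% of all genes were. Their median E9.0 change was 0.23, and 45 were called. Of 575 genes lower at E10.5, 507 (88.2%) were below 0 at E9.0, where 51.5% of all genes were, with a median of -0.29 and 74 called. At an unadjusted p under 0.05, 38.4% and 52.3% of the higher and lower genes passed in that direction at E9.0, against 5.49% and 6.33% of all genes. The estimate of the spread is shared here too, so these shares of all genes are not a like background.

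**Figure D5:**
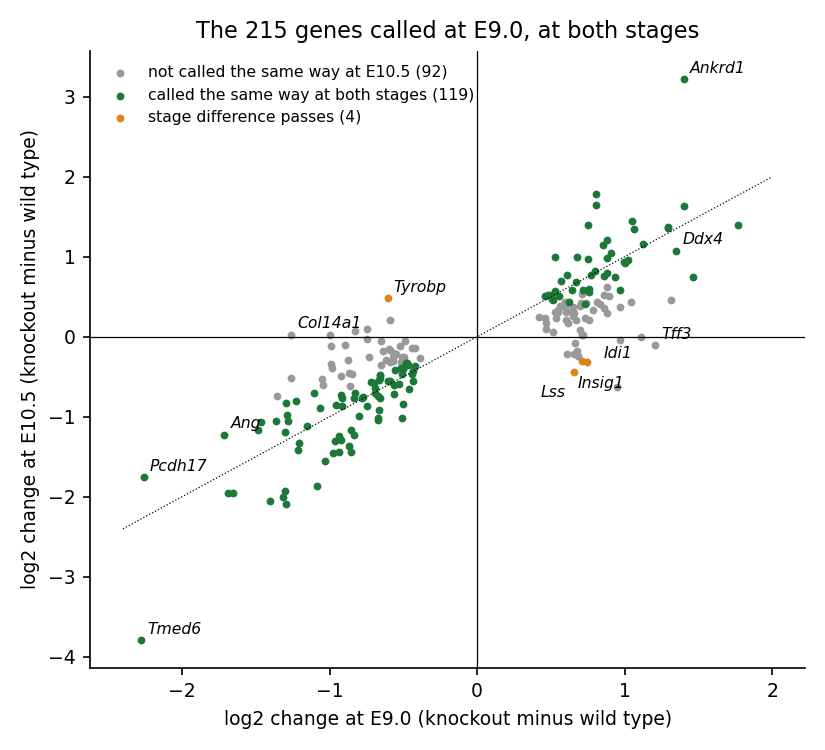
Log2 change at E10.5 (vertical axis) against log2 change at E9.0 (horizontal axis), knockout minus wild type, for the 215 genes called at E9.0, with the dotted line marking equal changes. Green points are the 119 called the same way at both stages, and orange points are Idi1, Insig1, Lss and Tyrobp, the 4 whose stage difference passed.

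The knockout effect differed between the stages for 34 genes (0.187% of those tested), of which 4 were called at E9.0. Lss, Idi1 and Insig1 were higher at E9.0 and had changes of -0.44, -0.31 and -0.31 at E10.5, none of them called there. Tyrobp fell by 0.61 at E9.0 and was higher by 0.48 at E10.5 (adjusted p = 0.0417), and was the 1 gene called in opposite directions. The number of E9.0 calls with such a difference was 0, 2 and 0 when knockout replicates 1, 2 and 3 were dropped, and 1, 3 and 7 for the wild type replicates.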

How the data were processed

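Yolk sac pools were measured on 12 arrays in 4 groups of 3, grouped by sample title. The authors deposited log2 values for which the submitters' processing notes name RMA, its version not given in the sources used here. RMA corrects background, scales arrays to 1 distribution and summarises probes, which removes any change shared by all transcripts and compresses changes of dim probe sets. The deposited table held 45101 probe sets. The 64 controls were left out, as were 932 probe sets with several gene symbols and 9160 with none in the platform annotation. Each gene was read from its probe set of highest mean level over the 12 arrays, which gave 18193 genes.

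limma 3.58.1 in R 4.3.3 was fitted with 1 mean per group on all 12 arrays, with empirical Bayes moderation (8 residual and 4.56 prior degrees of freedom), two-sided tests and Benjamini-Hochberg adjustment over all genes. The submitters call the 3 arrays of a group biological repeats. The fit was tested on simulated data. The members, the 49 gene lists and the 12 families set by symbol were chosen with earlier results of these data known. Genes are named where every fit without 1 array called them, where the change was called and at least 2-fold, where a list or family member passed (4 of smallest p beyond 5), where the stages differed, near Setd2, or for a high level, and some markers always. A batch of replicate 3 was inferred from control probe sets. Alternatives were the E9.0 arrays only, blocks, leaving out each array, filters on level, other scaling, probe set means, all probe sets and a trended spread.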

Additional observations from a re-analysis of the deposited data

Results flagged for a closer look

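For 4 genes called at E9.0 the knockout effect differed between the stages, by limma's test of the difference with adjusted p under 0.05. The difference (E10.5 minus E9.0) was -1.06 for Idi1, -1.02 for Insig1 and -1.09 for Lss, all higher in the knockout at E9.0. For Tyrobp, lower at E9.0, it was 1.09.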

How the results depend on the processing

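The 27 genes called in all 6 fits without 1 array kept their call whichever E9.0 array was left out. Each of these fits has fewer arrays, so calls lost in them need not come from the values of 1 array. Without 1 array each, calls ranged from 33 to 182, with 16 to 82 higher and 17 to 126 lower, and 21 to 73 with at least 2-fold change. Calls in the same direction at E10.5 ranged from 28 to 119, stage differences from 0 to 7 and called list members from 12 to 36. With the 6 E9.0 arrays alone 61 genes were called (31 higher, 30 lower, 27 at least 2-fold, 17 on lists). That fit has no E10.5 arrays, so it gives no stage results. With the replicate 3 batch as a block there were 476 calls (225 higher, 251 lower, 267 the same way at E10.5, 22 stage differences, 76 on lists). Within replicates 1 and 2 there were 69 (46 higher, 23 lower, 44 the same way at E10.5, 21 on lists). Testing every probe set gave 138 calls (61 higher, 0 stage differences). Genes above the median level gave 29 calls of at least 2-fold and 0 stage differences. Median centring gave 122 higher and 94 lower, with 8 stage differences. The causes were not tested.

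Same-numbered knockout and wild type arrays deviated together with correlations of 0.0341, 0.225 and 0.241, so the numbers were not taken as pairs. With a replicate block there were 349 calls, of which 189 were among the 215 (153 higher, 196 lower, 207 the same way at E10.5, 19 stage differences). Auh was the 1 named gene that reversed, to -0.13 with the mean of its probe sets. Setd2 was called under every alternative run, with changes from -1.45 to -1.22. With 3 pools a group and no detection call, changes of dim genes are limited by the number of arrays.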
